A study of Mus musculus with 12 samples.

Results

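The regions described here had a peak in at least 2 gRNA3 libraries and in no gRNAscr library. They are described by where they lie in the genome and by how well their sequence matches the guide. All libraries came from the mouse fibroblast line NIH-3T3, which carried lentiviral dCas9 tagged with 3XFLAG. This dCas9 is a Cas9 without nuclease activity, made from the hUbC promoter together with GFP, and GFP-positive cells were sorted. The cells then received a lentiviral guide under 10 µg/mL puromycin, either gRNA3, which directs dCas9 to the start of the shorter isoform of Il33, or gRNAscr, a scrambled guide with no intended target. Both groups also carried an empty vector in place of Cre recombinase, and each was a selected pool of cells, not a clone. For each guide there were 3 anti-FLAG libraries, 3 of dCas9:gRNA3 and 3 of dCas9:gRNAscr, and these have peak lists. The input libraries were not used here. The study calls its replicates biological, but the labels do not say whether they came from separate cultures, and a p-value measures only the spread between these libraries. Peak positions hold no marker of the cell line, and the label NIH-3T3 was not checked.

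The peaks of the 6 libraries on the 21 assembled chromosomes were merged where they shared at least 1 bp, which gave 7594 regions. A region was kept when at least 2 of the 3 dCas9:gRNA3 libraries and none of the 3 dCas9:gRNAscr libraries had a peak in it. This left 998 regions, or 13.1% of all merged regions, and they are called gRNA3-only regions here. The rule itself used the presence of peaks, so counts of libraries and the heights of these peaks are descriptions and carry no test. For comparison, 49 regions (0.645%) met the mirrored rule for dCas9:gRNAscr. The comparison classes are the 922 regions with peaks of both guides and the 5332 regions with a peak in 1 dCas9:gRNA3 library alone. The libraries differed greatly in their number of peaks on these chromosomes. The lists of dCas9:gRNA3 replicates 1, 2 and 3 held 193, 2041 and 6667 peaks, and those of dCas9:gRNAscr 290, 1160 and 84. The gRNA3-only regions are therefore mostly a product of 2 libraries. Replicates 2 and 3 alone shared 878 of them, replicates 1 and 3 shared 22, replicates 1 and 2 shared 2, and 96 (1.26% of all merged regions) had a peak in all 3. Without replicate 3 the rule kept 98 regions and without replicate 2 it kept 118, while leaving out any other library gave 974 to 1301. The lists hold no read totals, so the depth behind an absent peak is unknown, and a region without a dCas9:gRNAscr peak may still have held signal below the threshold of the peak caller.

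Cas9 first recognizes a short protospacer adjacent motif (PAM), which is NGG for the commonly used enzyme, and then pairs its guide with the DNA starting from the bases next to the PAM. These PAM-proximal bases are called the seed, and mismatches there disturb binding more than mismatches at the far end. Binding of dCas9 in ChIP-seq is known to tolerate many mismatches outside the seed, and dCas9 is also recovered at open chromatin. In the following, the run is the number of consecutive bases next to an NGG, on either strand, that match the PAM-proximal end of gRNA3. The longest run was sought with its PAM-adjacent base within 50 bp of the summit of the region's highest peak.

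The sites below carry the match. They belong to the target, to the 10 regions that ranked highest by the lowest of their 3 fold enrichments, and to every region with a run of at least 11 bases. Each is given 5′ to 3′ on the strand of the guide with the genome's 20 bases and the PAM, in mm10, with the run in capitals.
gRNA3 target in a UTR of Il33, chr19:29945780-29945802, plus strand: CGACTGTGTTAGCTCTCCACcgg
Intron of Wwox, chr8:114673533-114673555, minus strand: agaagacagcAGCTCTCCACtgg
Between genes, nearest to Chd7, chr4:8906826-8906848, plus strand: gactggaagTAGCTCTCCACagg
Intron of Tenm2, chr11:36526550-36526572, minus strand: atcaagtctcAGCTCTCCACggg
Intron of Akap6, chr12:52702774-52702796, minus strand: tgactgtattgGCTCTCCACagg
Between genes, nearest to Csf2, chr11:54223807-54223829, minus strand: ctcctctccTAGCTCTCCACagg
Intron of Gm34907, chr14:103500489-103500511, minus strand: cagccttgttcaCTCTCCACagg
Between genes, nearest to Smap2, chr4:121021925-121021947, minus strand: atctgtctgatGCTCTCCACtgg
Between genes, nearest to Tvp23a, chr16:10452760-10452782, plus strand: gagccacaccAGCTCTCCACggg
Between genes, nearest to Cop1, chr1:159391780-159391802, minus strand: ctcagaggcaagtTCTCCACggg
Between genes, nearest to Lamb1, chr12:31257697-31257719, minus strand: cccctgccTTAGCTCTCCACagg
Intron of Rab22a, chr2:173688742-173688764, minus strand: gtacagctgTAGCTCTCCACtgg
Intron of Slc15a3, chr19:10843867-10843889, minus strand: aggagtccaTAGCTCTCCACagg
Intron of Gm47518, chr12:69118755-69118777, plus strand: cagagtgtgTAGCTCTCCACtgg
Between genes, nearest to Sash1, chr10:8679936-8679958, minus strand: gctaaagtaTAGCTCTCCACagg
Read from the PAM leftwards, the capitals end after 7 to 12 bases in all of these sites but the target, and the lower-case part of most sites shows little of the guide.

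The target region held the full match. In Il33, which encodes an alarmin cytokine, the peak had a fold enrichment of 54, 31.7 and 80.3 in replicates 1, 2 and 3, and its highest summit lay 21 bp downstream of an annotated start. Fold enrichment is the peak caller's ratio of signal at the summit to the background around it. Only 3 of the 998 regions held a site with at most 4 mismatches to the 20 bases of gRNA3. Besides the target these were the intron of Akap6, an anchoring protein of protein kinase A, with 3 mismatches (C1T G8A A11G, with position 1 the guide's 5′ base), and the site nearest to Lamb1, a laminin chain, with 4 mismatches (G2C A3C T7C G8C). The Akap6 region had a fold enrichment of 16.9, 18.5 and 28.6 in the 3 libraries. The Lamb1 site had the longest run outside Il33, 12 bases, yet it reached only 8.46 in replicate 2 and 7.21 in replicate 3, with no peak in replicate 1. A further 2 regions had 5 mismatches at best. None of the 922 regions of both guides and none of the 5332 regions with 1 library held a site with at most 4 mismatches (exact binomial 95% intervals up to 0.399 and 0.0692%). The run, in contrast, was found in many more gRNA3-only regions than a near-complete match.

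A run of at least 6 bases stood near the summit of 126 of the 998 gRNA3-only regions (12.6%, 95% interval 10.6 to 14.8%). A run of at least 8 bases stood in 51 (5.11%, 3.83 to 6.66%) and of at least 10 bases in 28 (2.81%, 1.87 to 4.03%). The share depended on the number of libraries. Of the 96 regions with a peak in all 3 dCas9:gRNA3 libraries, 52 had at least 6 bases (54.2%, 43.7 to 64.4%), 31 had at least 8 (32.3%, 23.1 to 42.6%) and 16 had at least 10 (16.7%, 9.84 to 25.6%). Of the 902 regions with a peak in 2 libraries, 74 had at least 6 bases (8.2%, 6.5 to 10.2%) and 12 at least 10 (1.33%, 0.689 to 2.31%). The 22 regions of replicates 1 and 3 were between the other groups, with 5 that had at least 6 bases (22.7%, 7.82 to 45.4%), and both regions of replicates 1 and 2 had none. When the rule was applied without replicate 2 or without replicate 3, which leaves regions that all include a peak of replicate 1, the share with at least 6 bases was 49.2 or 52%. Intervals here are exact binomial intervals and cover counting error only.

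The comparison classes had shorter and fewer runs. At least 6 bases stood in 167 of the 5332 regions with 1 dCas9:gRNA3 library (3.13%, 2.68 to 3.64%), in 8 of the 922 regions of both guides (0.868%, 0.375 to 1.7%) and in none of the 342 regions with dCas9:gRNAscr peaks alone (up to 1.07%). Windows of 101 bp laid end to end over the genome held such a run in 0.338% of cases, and at least 10 bases in 0.0015%. For regions of both guides, the lower end of the interval at 6 bases lay just above the share of genome windows. With at least 10 bases, the gRNA3-only regions in all 3 libraries, those in 2 libraries, the regions with 1 library and those of both guides stood at 16.7, 1.33, 0.338 and 0.108%. The order of these classes was the same at 6, 8 and 10 bases.

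**Figure D1:**
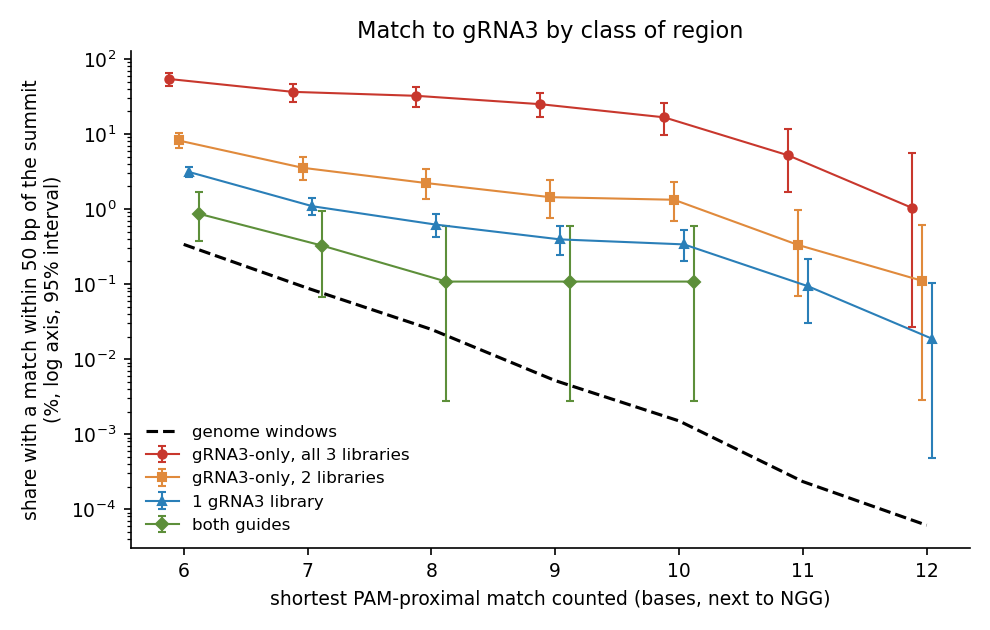
Share of regions (y axis, percent, log axis) with a PAM-proximal match of at least the length on the x axis (bases) within 50 bp of the summit, by class of region, with exact binomial 95% intervals, and the share of genome windows of the same width as a dashed line. Shares of 0 are not drawn. At 6 bases the gRNA3-only regions of all 3 libraries stood at 54.2%, those of 2 libraries at 8.2% and the genome windows at 0.338%.

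The same measure was taken over all peaks of each library, without the rule, to compare the guides. The 10-base seed stood near the summit of 9.84, 1.62 and 0.615% of the peaks of dCas9:gRNA3 replicates 1, 2 and 3 and of 0% of the peaks of each dCas9:gRNAscr library. The mean was 4.03% ± 5.06 (SD, n = 3) against 0%, a difference of 4.03 percentage points (p = 0.1 by an exact two-sided permutation test over 20 assignments, the smallest p this design allows). The groups did not overlap, but replicate 1, with the fewest peaks of its group, set most of the mean, which was 1.12% without it. At 6 bases the shares were 31.6, 6.47 and 4.29% for dCas9:gRNA3 against 0, 0.776 and 0% for dCas9:gRNAscr. The 84 peaks of dCas9:gRNAscr replicate 3 allow a share of up to 4.3%, so this library adds little.

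The height of the peaks was read within each library. Among the gRNA3-only regions, the median fold enrichment of those with a run under 6, of 6 to 9 and of at least 10 bases was 6.6, 7.14 and 9.39 in replicate 1. In replicate 2 these medians were 5.25, 5.68 and 8.46, and in replicate 3 they were 5.76, 6.98 and 9.4. The ranges of the groups overlapped in every library, and the quartile ranges of the shortest and longest runs in replicates 1 and 2 but not in replicate 3 (up to 6.93 against 7.36 and above). Of the 10 highest gRNA3-only regions of each library, 9, 10 and 9 had a run of at least 6 bases in replicates 1, 2 and 3. Among the highest 100 it was 50, 34 and 44. The lowest value among regions with at least 10 bases was 2.65, in replicate 3 at the start of Jrk, so a long run did not come with a high peak everywhere. Fold enrichment ordered the regions only partly alike in the 3 libraries. The Spearman correlation was 0.66 between replicates 1 and 2 (98 regions), 0.69 between 1 and 3 (118) and 0.561 between 2 and 3 (974). These are correlations across regions of libraries with shared base composition and antibody, and regions are not replicates.

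**Figure D2:**
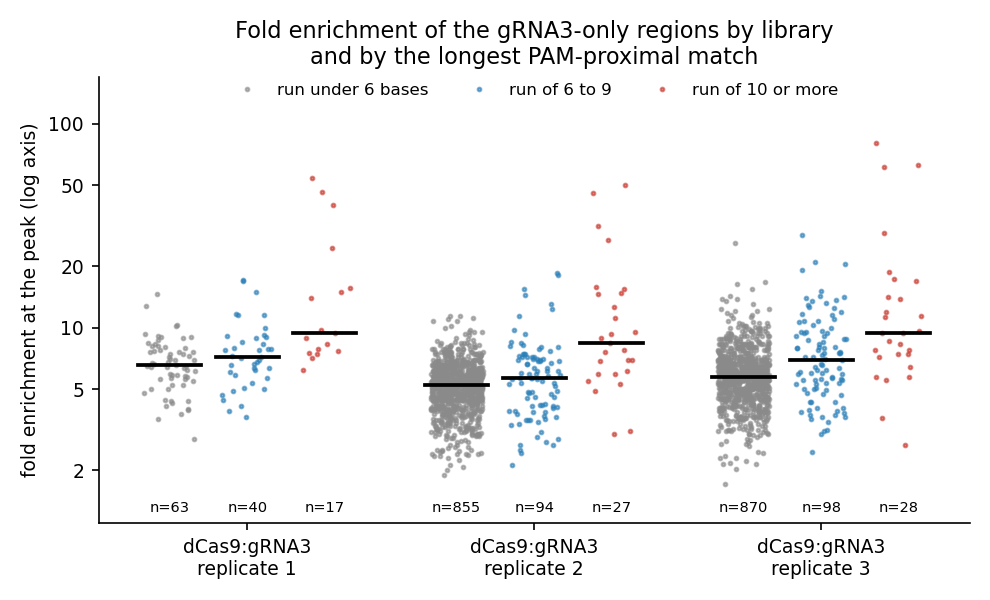
Fold enrichment (y axis, log axis) of each gRNA3-only region in the 3 dCas9:gRNA3 libraries, grouped by the longest PAM-proximal run. Each point is a region, the bar is the median and n the number of regions with a peak in that library. The groups overlap, while the points above 30 all have a run of at least 10 bases.

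The regions ranked highest by the lowest of their 3 values were led by the target and 2 others. The Wwox intron, in a large oxidoreductase gene at a fragile site, had 46.1, 45.6 and 61.2 with a run of 10. The region nearest to Chd7, a chromatin remodeller, had 40, 50.2 and 63.1 with a run of 11. Each of these 3 regions exceeded every other gRNA3-only region in all 3 libraries. Far below them came the intron of Tenm2, a teneurin of cell adhesion, with 24.5, 26.8 and 29.1 and a run of 10, and then Akap6. The region nearest to Csf2, the cytokine GM-CSF, had 15, 15.8 and 17 with a run of 11. Those nearest to Smap2 and Tvp23a, genes of vesicle transport, had 17.1, 14.4 and 15.1 and 14, 15.5 and 14.1, with runs of 9 and 10. The others were an intron of the non-coding gene Gm34907, 12859 bp from Scel, with 14.9, 18.1 and 20.9 and a run of 8, and a region 49422 bp from Cop1, a ubiquitin ligase, with 11.7, 15.4 and 14.3 and a run of 7. All 10 highest regions thus had a run of at least 7 bases, and 8 of them had a run of at least 9.

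The summit lay close to the site. Over the 126 regions with a run of at least 6 bases, the median distance between the highest summit and the base next to the PAM was 11 bp. It was 15 bp for a run of 6 (59 regions), 9 bp for 7 to 9 (39) and 6 bp for at least 10 (28), where 18 sites (64.3%) lay within 10 bp of the summit. The search reached 50 bp to each side, so distances above that could not occur. The 28 longest matches were split evenly, with 14 on each strand. The libraries placed their summits closer together where the run was long. Between replicates 2 and 3 the median distance of summits was 10 bp for regions with at least 10 bases and 38 bp for those with a run under 6, and the summits lay within 50 bp of each other in 92.6 and 58.6% of them. Over all gRNA3-only regions this distance was 34 bp.

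**Figure D3:**
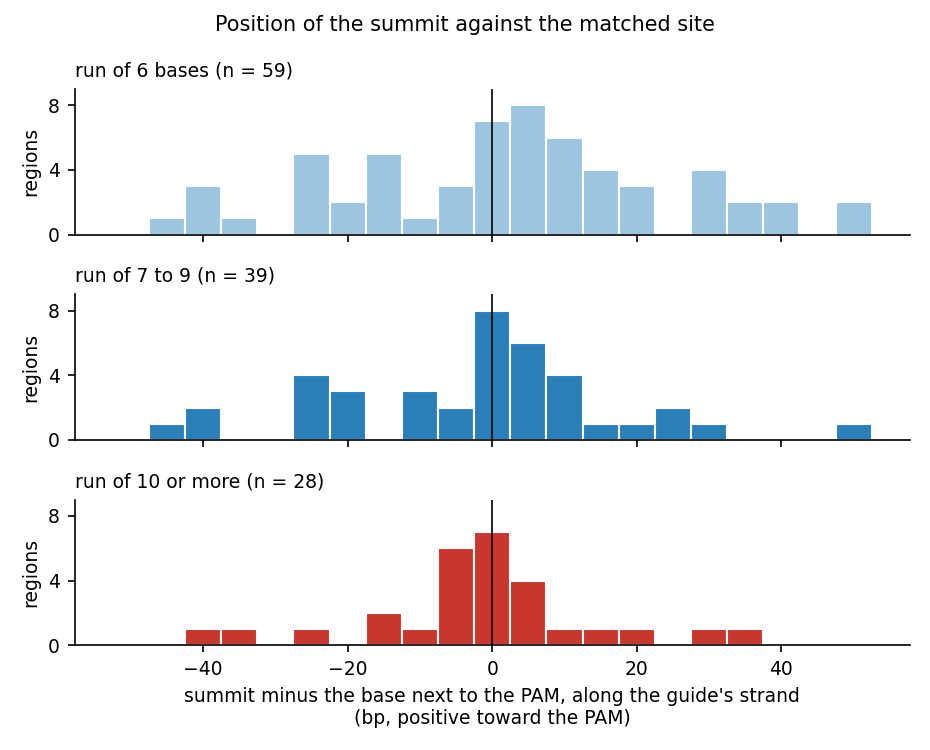
Position in bp of the summit relative to the PAM-adjacent base of the longest run (x axis, along the strand of the guide and positive toward the PAM), against the number of gRNA3-only regions (y axis), by length of the run. Sites with a run of at least 10 bases crowd at the centre, with a median distance of 6 bp, while those with 6 bases spread over more of the window, with a median of 15 bp.

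A library whose peaks were not required for choosing regions can be read beside that choice, though not fully apart from it. The regions were those merged over all 6 libraries, so a peak of the library being read could join other peaks into 1 region. Regions were therefore chosen by peaks in a pair of dCas9:gRNA3 libraries, without regard to dCas9:gRNAscr, and read in the other libraries. Of 163 regions chosen by replicates 1 and 2, replicate 3 had a peak in 98.8% (95.6 to 99.9%), while dCas9:gRNAscr replicates 1, 2 and 3 had a peak in 20.2, 34.4 and 18.4%. Split by the sequence, the 54 of these regions with a run of at least 6 bases had a peak in replicate 3 in 100% of cases and in 1.85, 1.85 and 0% in the dCas9:gRNAscr libraries. The 109 with a run under 6 had a peak in 98.2% in replicate 3 and in 29.4, 50.5 and 27.5% in the dCas9:gRNAscr libraries. Regions without a run thus had dCas9:gRNAscr peaks in a larger share than regions with a run, with intervals that did not overlap for any of the 3 libraries. The run was sought around the highest summit over all 6 libraries, so the library being read could affect this split. Where a dCas9:gRNAscr peak was the highest, it set where the run was sought. The contrast by run is therefore not independent of the libraries read. Replicate 3 held 6667 peaks and the dCas9:gRNAscr libraries 290, 1160 and 84. Replicate 3 and dCas9:gRNAscr thus differ in list length as well as in guide, and the 2 cannot be told apart here.

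The choice by replicates 2 and 3 gave more regions. Of 1440 such regions, replicate 1 had a peak in 11.2% (9.6 to 12.9%) and dCas9:gRNAscr replicates 1, 2 and 3 in 10.1, 29.9 and 3.54%, so before the split by sequence replicate 1 lay within the range of the dCas9:gRNAscr libraries. With a run of at least 6 bases (127 regions) replicate 1 had a peak in 42.5% (33.8 to 51.6%) against 1.57, 3.94 and 0% for dCas9:gRNAscr. With a run under 6 (1313 regions) it had a peak in 8.15% (6.73 to 9.76%) against 10.9, 32.4 and 3.88%. Choice by replicates 1 and 3 gave 91.5% in replicate 2 for 59 regions with a run and 82.3% for 130 without. Replicate 1 and dCas9:gRNAscr replicate 3 held 193 and 84 peaks, which bounds the share that each can show. The merging and the split by run had the same limits here, as both used the peaks of all 6 libraries.

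Most sites with a long run had no gRNA3-only region. The assembled chromosomes held 332 sites with a run of exactly 10 bases and a PAM, of which 22 lay in a gRNA3-only region (6.63%, 4.2 to 9.86%), and 45 with a run of 11, of which 6 did (13.3%, 5.05 to 26.8%). Of 15 sites with a run of 12 to 19 bases, 1 did (6.67%, 0.169 to 31.9%). Regions with 1 dCas9:gRNA3 library held a further 14 sites with a run of 10, 4 with 11 and 1 with 12 to 19. A region of both guides held 1 site with a run of 10. For runs of 6, 7, 8 and 9 the shares in gRNA3-only regions were 0.156, 0.12, 0.577 and 0.936%. Without the 2 regions that held tandem copies of a site, the shares for runs of 6 and 8 were 0.125 and 0.328%, a comparison chosen after seeing the data. The sites with a run of 10 to 19 bases were compared by their surroundings. The 29 sites in gRNA3-only regions had a median GC content of 51.7% over 201 bp, and 3 of them (10.3%, 2.19 to 27.4%) lay within 1 kb of an annotated start. The 343 sites in no merged region had a median of 47.8%, and 26 (7.58%, 5.01 to 10.9%) lay near a start. The intervals for the share near a start overlapped widely. None of the 29 sites was on chromosome X or Y, where 16 of the 343 lay, and the median number of mismatches over the 20 bases was 8 in both groups.

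The bases beyond the seed showed little of the guide. In the 27 gRNA3-only regions other than Il33 with a run of at least 10 bases, the site had 4 to 9 mismatches among the remaining bases (median 7). At guide positions 1 to 10, counted from the 5′ end, 3 to 12 of the 27 sites had the base of the guide, with the most at position 4 and the fewest at position 5. The value at position 10, 7 of 27, was set by the run itself, as only a run above 10 bases matches there. The first base of the PAM was A in 13, C in 5, G in 4 and T in 5 of these sites. The share with the base of the guide was thus 11.1 to 44.4% by position, with no test made.

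Some gRNA3-only regions held the 10-base seed with a mismatch. Allowing at most 1 mismatch among the 10 bases, 46 regions (4.61%, 3.39 to 6.1%) held it, against 0.0384% of genome windows. Of the 18 with exactly 1 mismatch, 9 had it at position 11, the seed base farthest from the PAM, 2 at position 12 and 3 at position 13. The remaining 4 had it nearer to the PAM, at positions 15, 18, 19 and 19, and so counted as having a run under 6. Among them was the region in an intron of 1700125G22Rik, 1288 bp upstream of Ect2, a guanine nucleotide exchange factor of cytokinesis, at chr3:27155003-27155372. Its fold enrichment was 14.6, 11.1 and 16.7 in the 3 libraries, and its seed carried A19T. By the lowest of the 3 values it ranked first among regions with a run under 6.

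Repeated sites occurred in a pair of regions. An intron of Dnah14, an axonemal dynein chain, held 21 sites with a run of 6 within chr1:181742971-181743827, a region of 857 bp, spaced every 40 bp on the minus strand. Its fold enrichment was 6.66, 5.33 and 10.7 in the 3 libraries. A region between genes on chromosome 16, 19145 bp upstream of Slc25a1, the mitochondrial citrate carrier, held 13 sites with a run of 8 within 549 bp, with 30 bp between neighbours in 11 of 12 gaps. Fold enrichment there was 4.08 and 4.32 in replicates 2 and 3, and replicate 1 had no peak. The repeat units are shown by the site nearest to the summit of each.
Intron of Dnah14, chr1:181743596-181743618, minus strand: tggaaggtagatacCTCCACtgg
Between genes, nearest to Slc25a1, chr16:17947333-17947355, plus strand: caatcacagtgaCTCTCCACtgg
In replicate 3 the Dnah14 peak was above the median of 5.84 over gRNA3-only regions and the Slc25a1 peak below it. Another 4 gRNA3-only regions held 2 sites each.

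Most gRNA3-only regions had no run. A run under 6 bases was the best near the summit in 872 of 998, and 44 of these were among the 96 with a peak in all 3 libraries. After the Ect2 region, high values in all 3 libraries were found at chr19:38973637-38974025 nearest to Hells, a chromatin remodeller needed for DNA methylation, with 10.3, 10.8 and 13.5. Others were chr10:41004421-41004751 nearest to Gpr6 with 9.31, 9.19 and 12.3 and a region on chromosome 18 nearest to Arhgap12, a GTPase activating protein, with 9.05, 9.55 and 10.1. The largest single value without a run was 26.1 in replicate 3, in an intron of Itgal, an integrin chain of leukocytes, where replicates 1 and 2 had 7.65 and 10.8 (chr7:127326717-127327044, a region chosen after its values were seen). Its GC content was 60.2%, and the region held no site with 5 or fewer mismatches to gRNA3.

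Some regions were shared by only a pair of libraries. Replicates 1 and 2 alone shared chr5:11477525-11477746, with 7.42 and 6.67, and an intron of Nfkb1, which encodes a subunit of NF-kappa-B, at chr3:135628697-135629121 with 7.01 and 5.87. The highest of replicates 1 and 3 were introns of Ntn4, a netrin, with 9.03 and 8.11, and Tiam2, an exchange factor for Rac, with 6.69 and 10.5, and chr3:42039730-42040042, with 7.9 and 9.4 and a run of 10. The highest of replicates 2 and 3 were introns of Dnm3, a dynamin, with 10.2 and 10.6, and Vps13b, with 9.55 and 14.3, and chr15:64470749-64471072 nearest to Asap1, with 9.96 and 13.8. Of these 8 regions 1 had a run of at least 6 bases. The remaining regions with a run of 11 were the following. In introns of Rab22a, an endosomal GTPase, and Slc15a3, a lysosomal transporter, fold enrichment in replicates 1, 2 and 3 was 8.87, 12.6 and 11.3 and 6.18, 6.84 and 8.62. In the Gm47518 intron, 40317 bp from the ribosomal protein gene Rps29, and the region nearest to Sash1, replicates 2 and 3 had 6.15 and 8.31 and 5.91 and 6.39.

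By location, the gRNA3-only regions were mostly outside exons. The highest summit lay in an intron in 517 regions (51.8%, 48.7 to 54.9%), between genes in 431 (43.2%) and in an exon in 50 (5.01%), of which 10 were coding, 21 untranslated and 19 non-coding. Of the genome's bases 40.8, 55 and 4.19% are intronic, between genes and exonic in the same annotation. The other classes were alike, with introns holding 49.1% of regions of both guides, 50% with 1 library and 51.8% of dCas9:gRNAscr alone. Among gRNA3-only regions with a run of at least 6 bases, introns held 59.5% (50.4 to 68.2%). Those without a run had 50.7% (47.3 to 54.1%), an interval that overlapped. The shares between genes were 31% (23 to 39.8%) with a run and 45% (41.6 to 48.3%) without. These intervals did not overlap, and the difference was not tested. An annotated transcription start lay within 1 kb in 90 regions (9.02%, 7.31 to 11%, and 15.3 and 14.3% without replicates 2 and 3), against 4.43% of genome positions, and the median distance to a start was 12768 bp. The share was 9.65% (7.82 to 11.7%) for regions of both guides, 9.79% for regions with 1 library and 6.73% (4.31 to 9.92%) for regions of dCas9:gRNAscr alone. Within 5 kb it was 26.7% (23.9 to 29.5%) for the gRNA3-only regions and 18.4% (14.5 to 22.9%) for regions of dCas9:gRNAscr alone. Regions with 1 library had 26.4% (25.2 to 27.6%) and those of both guides 23.1% (20.4 to 26%), with intervals that overlapped that of the gRNA3-only regions. Within 1 kb, the share of gRNA3-only regions was 14.6% (8.21 to 23.3%) with a peak in all 3 libraries and 8.43% (6.7 to 10.4%) with 2, whose intervals overlapped. Exons held 11.5% (5.86 to 19.6%) of the regions with all 3 libraries and 4.32% (3.09 to 5.86%) of those with 2.

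A protein-coding start lay within 1 kb of 65 regions, with the summit upstream in 38 and at or downstream of the start in 27, and within 100 bp in 21. Beside Il33, those ranked highest by their second-highest value were at Fbxl17 and Fgd4, an exchange factor for Cdc42, with 10.2, 5.54 and 9.18 and 8.87, 7 and 10.8 in the 3 libraries. Zfp345 and Pate1 had 11.4 and 8.58 and 8.25 and 12.1 in replicates 2 and 3. Ahcyl2 had 7.97, 8.22 and 7.68. Tnrc6b, which encodes a protein of microRNA silencing, and Exoc6b, of the exocyst, had 7.61 and 8.31 and 7.19 and 10.8 in replicates 2 and 3. Fgd4 and Exoc6b had runs of 7 and 6 bases, and the other 5 had a run under 6. A run of at least 8 bases stood within 1 kb of a protein-coding start in 6 regions, which were picked out after their values were seen. Apart from Il33 and Slc15a3 these were low peaks in GC-rich promoters. The sites at Jrk and Aco1, an iron regulatory protein, were the following.
Jrk, UTR, chr15:74709283-74709305, plus strand: ccagccacgcAGCTCTCCACcgg
Aco1, UTR, chr4:40143408-40143430, plus strand: ggttccggcccGCTCTCCACcgg
The Jrk region had a GC content of 73.1% and a fold enrichment of 3.13 and 2.65 in replicates 2 and 3. The Aco1 region had 75.1% and 4.66, 3.85 and 3.55 in the 3 libraries. Camkk2, a kinase that activates AMPK, with a run of 9, had 79.1% and 3.66 and 4.02 in replicates 2 and 3. The region at Rab13, with a run of 8, had 66.2% and 2.11 and 3.63. Seed matches at promoters thus did not all come with high peaks, and the Slc15a3 region, with 53.2% GC, was higher than these 4.

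**Figure D4:**
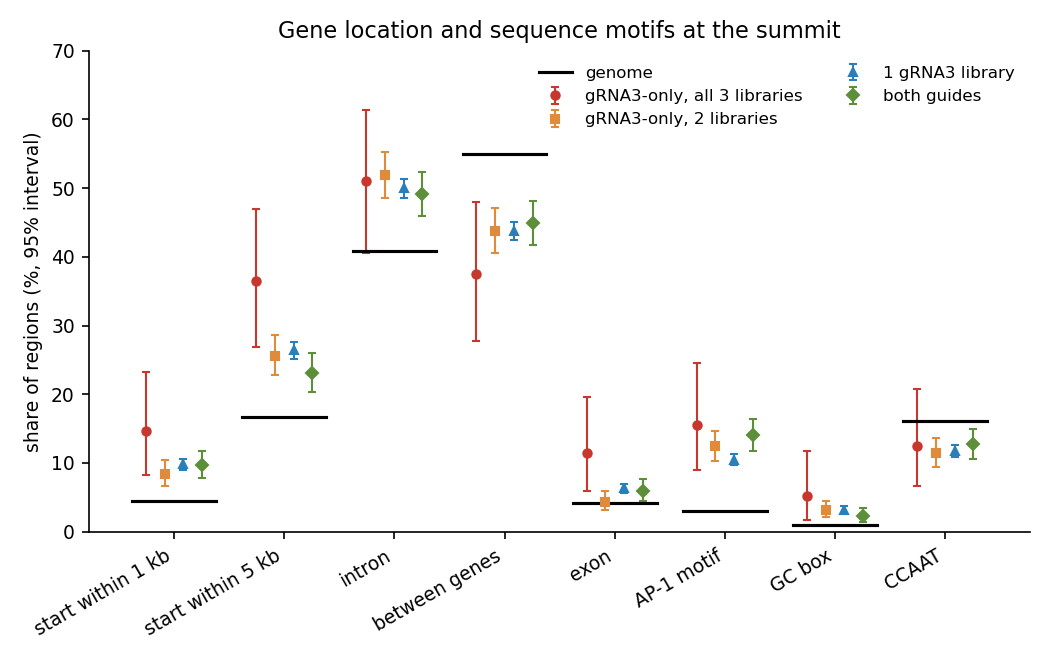
Share of regions (y axis, percent) by location of the summit and by motif within 50 bp of it (x axis), for gRNA3-only regions of all 3 libraries and of 2, the comparison classes and the genome (black lines), with exact binomial 95% intervals. A start lay within 1 kb of 14.6% of gRNA3-only regions of all 3 libraries, 8.43% of those of 2 and 9.65% of regions of both guides, with overlapping intervals.

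The regions were richer in G and C than the genome. Over 201 bp around the summit the median GC content was 50.7% (quartiles 49.3 and 52.7%) against 41.3% (36.3 and 47.3%) in genome windows of that width. The regions of both guides had 50.2%, those with 1 library 51.2% and those of dCas9:gRNAscr alone 48.8%. Regions with a peak in all 3 libraries had 52.2%. CpG dinucleotides numbered 2.97 per window on average, against 2.62 in regions of both guides, 3.05 with 1 library and 1.66 in the genome. Repeats masked 10.3% of the bases against 36.4% in the genome. The other classes were low as well, with 9.23% for both guides, 11.8% for 1 library and 9.44% for dCas9:gRNAscr alone. A high CpG count was rare, with at least 10 in 23 regions (2.3%), of which 16 lay within 1 kb of a start. Their median fold enrichment was 3.4 and 3.55 in replicates 2 and 3, below the medians of all gRNA3-only regions, 5.27 and 5.84. The regions were 208 to 1071 bp wide with a median of 344 bp.

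Short motifs of factors active in fibroblasts were counted within 50 bp of the summit on both strands, and in genome windows of the same width, 101 bp. AP-1, the factor of Fos and Jun, binds TGANTCA, which stood in 12.7% of gRNA3-only regions (10.7 to 15%), 14% of regions of both guides, 10.4% of regions with 1 library and 2.96% of genome windows. The share was 14.3% for gRNA3-only regions with a run of at least 6 bases and 12.5% for those without. The Sp and KLF box GGGCGG stood in 3.31% against 0.988% of genome windows, and the TEAD motif GGAATG in 8.12% against 5.5%. CCAAT, bound by NF-Y, went the other way with 11.5% against 16.1%. The ETS motif CGGAAG was in 2% against 1.01%. TGACGT, the core of the cyclic AMP response element, was in 0.601% (0.221 to 1.3%) against 0.722%, within counting error of the genome. For none of the 6 motifs did the intervals of the gRNA3-only regions and of the regions of both guides separate. A match of letters is a description and says nothing of a factor bound there.

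**Figure D5:**
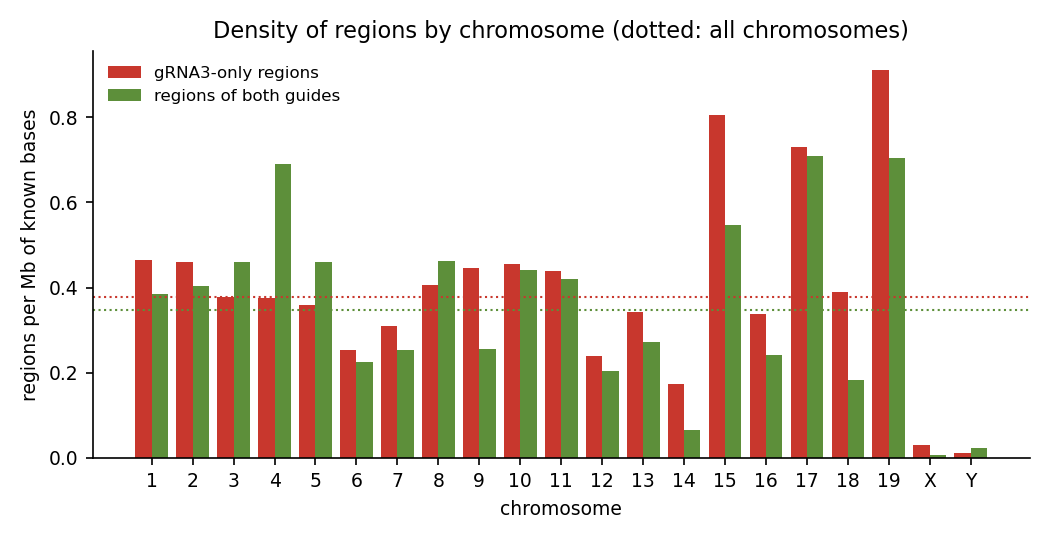
Regions per Mb of known bases (y axis, bars from 0) on each chromosome (x axis) for gRNA3-only regions and regions of both guides, with dotted lines for all chromosomes together. Chromosome 19 was highest with 0.911 gRNA3-only regions per Mb and chromosome Y lowest with 0.0113.

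Chromosomes differed in density for both classes. There were 0.377 gRNA3-only regions per Mb in all, 0.911 on chromosome 19, 0.805 on 15 and 0.731 on 17, and the regions of both guides had 0.704, 0.546 and 0.709 there. Chromosome 14 had 0.173 and X 0.0306 per Mb, with 5 regions on X and 1 on Y, none of them with a run of at least 6 bases. Chromosome 4 stood out with 0.375 per Mb against 0.691 for regions of both guides. Regions seldom lay together, as 63 (6.31%) had another within 10 kb and 10 within 1 kb. The median distance to the nearest dCas9:gRNAscr peak was 289907 bp, and 14 regions (1.4%) were within 500 bp of such a peak.

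Of 21911 protein-coding genes, 451 (2.06%) had a gRNA3-only region in their body or near their start, and 65 (0.297%) within 1 kb of a start. The 434 genes with a region in their body were long, with a median of 108 kb against 17.4 kb over all, and 44 of them had at least 2. Ank3, which encodes ankyrin-G of the membrane skeleton, had 5, all in introns and none with a run of at least 6 bases, over 629 kb. Dnm3 had 4 over 496 kb. Galk2, Eps8, Trio, Macf1, Syn3, Pde4d and the overlapping model Gm20388 had 3 each. In Trio, a guanine nucleotide exchange factor, 1 had a run of at least 6 bases and 2 had a peak in all 3 libraries, and in Syn3 2 had a run.

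Lists of genes related to the target and the cells were small. A region was found for 16.7, 5 and 6.25% of the Il33, fibroblast matrix and actin lists, against 2.06% of all protein-coding genes. These shares rest on 2, 1 and 1 genes and were not tested. Of 12 genes of the Il33 pathway, 2 had a region, Nfkb1 and Il33, which is on the list as the guide's target. Of 20 genes of fibroblast matrix, 1 had a region, Col5a2, a fibrillar collagen chain, 164 bp downstream of its start with 3.02 and 7.68 in replicates 2 and 3 and a run under 6. Of 16 genes of actin and the serum response, 1 had a region, in an intron of Tpm4, a tropomyosin, with 4.62 and 7.1. None of 18 immediate early genes and none of 10 genes of the DNA methylation machinery had a region. At 2.06% over all genes, lists of this size can hold none without standing apart. Il33 was thus the only gene of these lists with a run of at least 6 bases.

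The threshold of the rule can be seen at its edge. The gRNA3-only regions with the lowest −log10 q in a library they needed had 1.31, on chromosome 18 in an intron of Arhgap26, with fold enrichments of 2.48 and 4.67 in replicates 2 and 3, then 1.32 at chr7:113151408-113151854, with 2.29 and 7.23, and 1.35 at chrX:150458972-150459313, with 6.45 and 2.98. Just outside were regions with a strong peak in replicate 3 alone. Their fold enrichments were 14 at chr15:80797740-80798144 upstream of Tnrc6b, 13 at chr13:99399319-99399670 and 12.7 at chr1:10872845-10873132. The region upstream of Tnrc6b lay within 500 bp of the gRNA3-only region at that start, chr15:80798373-80798631, with 7.61 and 8.31 in replicates 2 and 3. Some peaks of replicate 3 that no other library had were thus higher than many peaks that met the rule.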

How the data were processed

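Per the submitters' processing notes, reads were trimmed with Trim Galore 0.6.4 and aligned with Bowtie2 2.3.4.1 to mm10, and MACS2 2.2.7.1 called peaks in each library, not in pooled libraries. The study's methods name no control for the calls while another passage names input. The deposited peak lists hold a display score, the fold enrichment (a ratio) at the summit, and −log10 p-values and −log10 q-values, all computed by the authors. The score was not used. The lists hold no read totals, so depth is not given. Binomial intervals (exact, Clopper-Pearson, 95%) are over regions, peaks or sites and cover counting error only, since those of the same few libraries are not replicates. PCR reads without molecular identifiers are also not independent molecules.

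Positions were written 1-based on GRCm38 (mm10), with RefSeq sequence and GENCODE annotation of that build. The 6 peak lists were merged on the 21 assembled chromosomes where peaks shared at least 1 bp, and 0 columns were left without a sample. The summit of a region was that of its peak with the highest fold enrichment. The guide was read from a supplementary sequence table of the study. The study's material gives its first base in 2 ways, and the one equal to the genome was used. Runs of matches were sought with the PAM-adjacent base within 50 bp of the summit, and near-complete sites with at most 4 mismatches anywhere in a region. Composition used 100 bp and motifs 50 bp to each side of the summit. Starts were all annotated transcript starts.

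The regions and gene lists were chosen with earlier results of these data known. Regions named in the text were the 10 with the highest minimum fold enrichment over the 3 dCas9:gRNA3 libraries, those with at most 4 mismatches or a run of at least 11 bases, the highest of each pair of libraries, the 8 highest at protein-coding starts, the 5 highest without a run (1 of which is not reported here), genes on the lists or with the most regions, and those at the edge of the rule. The guides were compared over libraries by a two-sided exact permutation test. Alternatives were a seed of 8 or 12 bases, stricter q-values, fold enrichment of at least 4, other overlaps, gaps and distances, and leaving out each library, with the effects given under the processing. Programs were Python 3.11.15, numpy 2.4.6, pandas 2.3.3, scipy 1.17.1 and numba 0.67.0, tested on simulated data.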

Additional observations from a re-analysis of the deposited data

Results flagged for a closer look

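Peaks on unplaced sequences of the assembly were outside the comparisons above. Merged in the same way they gave 23 regions, of which 4 had peaks in at least 2 dCas9:gRNA3 libraries and no dCas9:gRNAscr library, and 0 met the mirrored rule. Their fold enrichments in replicates 2 and 3 were 4.63 and 5.07, 7.26 and 7.21, 2.66 and 2.59, and 2.04 and 2.1, and replicate 1 had no peak in any of them. These regions drew attention because they met the rule in data the comparisons did not use. On the assembled chromosomes 13.1% of merged regions met it, and the 2 shares were not compared by a test. All 23 unplaced regions had a dCas9:gRNA3 peak and 3 had a dCas9:gRNAscr peak. No match to the guide was sought on these sequences. With 3 libraries for each guide, no library was tested as standing apart from its group.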

How the results depend on the processing

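The number of gRNA3-only regions, 998, was 660 with a −log10 q of at least 5 and 96 when all 3 dCas9:gRNA3 libraries were required, and leaving out a library gave 98 (without replicate 3) to 1301 (without dCas9:gRNAscr replicate 2), with 118 without replicate 2. The share with the 10-base seed, 2.81%, was 5.11% for 8 bases, 0.2% for 12, 4.39% with −log10 q of at least 5 and 16.7% with all 3 libraries, and leaving out a library gave 2.15 to 16.3% (15.3% without dCas9:gRNA3 replicate 2 and 16.3% without replicate 3). The share within 1 kb of a start, 9.02%, was 6.51% at 500 bp, 26.7% at 5 kb, 6.51% with protein-coding starts alone and 14.6% with all 3 libraries, and leaving out a library gave 8.83 to 15.3% (15.3% without dCas9:gRNA3 replicate 2 and 14.3% without replicate 3). The median GC content, 50.7%, was 48.1% over a wider window and 52.2% with all 3 libraries, and leaving out a library gave 50.7 to 52.2%. The number of regions was 887 with −log10 q of at least 3 and 781 with a fold enrichment of at least 4. It was 987 with an overlap of at least 0.5 of the shorter peak and 1000 with peaks up to 500 bp apart merged. The other alternatives gave 2.4 to 3.71% for the 10-base seed, 9.36 and 10% for starts within 1 kb, and 50.7 and 51.5% for GC content. The share with a run of at least 6 bases, 12.6%, was 49.2% without replicate 2 and 52% without replicate 3.

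The labels give both guides replicate numbers 1 to 3. With these numbers as a replicate block, the difference of 4.03 percentage points between guides had p = 0.25 in an exact sign-flip permutation test, the smallest its 8 arrangements allow. Leaving out a library gave differences of 1.12 (without dCas9:gRNA3 replicate 1) to 5.73, and with 0% in each dCas9:gRNAscr library none could fall below 0. No setting of this test could pass 0.05, so its p-values say nothing of stability. Requiring −log10 q of at least 3, chosen after seeing the data, gave 98.7% of regions of replicates 1 and 2 with a peak in replicate 3, and 13% with the AP-1 motif. Absent peaks are limited by an unknown depth.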
